A study of Mus musculus with 6 samples.

Results

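The genes described here encode 10 inhibitory receptors of myeloid cells, chosen by name from the 23337 genes of the table. They are Siglece, Cd33 and Siglec5 of the Siglec family, Lilrb3, Lilrb4, Pilra and Sirpa of the immunoglobulin-like paired receptor families, Cd300a and Cd300lf of the CD300 family, and Lair1. Lilrb3 is the symbol used in the table for Pirb, Lilrb4 for Lilrb4a and Siglec5 for Siglecf. They were selected with the responses of Siglece and Lilrb3 to the drugs already known, so the changes of all 10 with the drugs are given as a description: no p-value is given for them, and where it is said which passed the threshold used for all genes, nothing is read from it. RNA came from C57BL6 mouse granulocyte-monocyte progenitors of the bone marrow, carried in culture by ER-HOXA9, a HOXA9 transcription factor fused to the estrogen receptor that blocks differentiation while beta-estradiol is present. Cells of all groups carried this fusion, and the medium was RPMI with 10% FBS, stem cell factor and 0.5 µM beta-estradiol. The drug group (2 libraries) was treated for 3 days with 200 nM GSK-LSD1, an LSD1 (histone demethylase) inhibitor, together with 5 µM mercaptopurine, a purine analogue, and 5 µM cerulenin, which blocks fatty acid synthesis. The vehicle group (2 libraries) received DMSO for 3 days, and the day 0 group (2 libraries) was left untreated. No drug was given alone, so the contributions of the 3 drugs cannot be told apart. The fusion holds the cells in an artificial block, which limits them as a model of normal progenitors, and the sources used here do not say how many clones the cultures came from.

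Most of these receptors carry immunoreceptor tyrosine-based inhibitory motifs (ITIMs) in their cytoplasmic tails. When Src family kinases phosphorylate an ITIM, it recruits the phosphatases SHP-1 (Ptpn6) and SHP-2 (Ptpn11), which dampen signals from activating receptors. Many have activating partners with similar extracellular domains that signal through adaptors such as DAP12 (Tyrobp). Siglecs bind sialic acid on glycans, PIR-B binds MHC class I, and SIRPα binds CD47 on other cells. In the mouse, Siglec-E is best known on neutrophils, monocytes and macrophages, and Siglec-F on eosinophils.

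The RefSeq promoter table (GRCm38.p6, the same assembly as the mm10 build of the counts) held 8 of the 10 genes, all but Lilrb4 and Sirpa. In the 250 bases before the start, the letters GAGGAA, the core bound by PU.1 and related ETS factors of myeloid cells, were searched on both strands. All 8 windows held at least 1 match, whereas 23.25% of 32851 RefSeq promoters of this length did. The Siglece window held 3 matches, which begin 87, 36 and 11 bases before the start, and the Lilrb3 window held 3, at 185, 120 and 87 bases. The other 6 windows held 1 each, including those of Cd300a and Lair1, whose levels with drugs and vehicle were close to each other. A match is a description of letters and not a binding site. The promoters of Siglece, the gene with the largest change, and Lilrb3, whose level was lower with vehicle than in the other groups, are printed. Those of Cd33, the most abundant receptor, and Cd300a, whose level stayed near that of vehicle, are printed with them. Each promoter reads 5′ to 3′ on the strand of the gene, with GAGGAA or its complement TTCCTC in capitals. They lie at chr7:43660162-43660411 (minus strand) for Siglece, chr7:3720383-3720632 (minus strand) for Lilrb3, chr7:43533172-43533421 (minus strand) for Cd33 and chr11:114889791-114890040 (plus strand) for Cd300a.
Siglece: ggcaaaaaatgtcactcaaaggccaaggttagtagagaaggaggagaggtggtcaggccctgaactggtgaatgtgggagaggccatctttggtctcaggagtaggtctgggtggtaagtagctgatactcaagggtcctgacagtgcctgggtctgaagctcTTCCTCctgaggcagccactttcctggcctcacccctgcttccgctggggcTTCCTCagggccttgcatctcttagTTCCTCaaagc
Lilrb3: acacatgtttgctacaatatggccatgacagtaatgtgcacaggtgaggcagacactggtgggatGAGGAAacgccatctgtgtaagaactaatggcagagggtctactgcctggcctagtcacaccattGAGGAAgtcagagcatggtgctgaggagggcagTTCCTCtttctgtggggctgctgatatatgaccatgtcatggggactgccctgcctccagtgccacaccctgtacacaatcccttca
Cd33: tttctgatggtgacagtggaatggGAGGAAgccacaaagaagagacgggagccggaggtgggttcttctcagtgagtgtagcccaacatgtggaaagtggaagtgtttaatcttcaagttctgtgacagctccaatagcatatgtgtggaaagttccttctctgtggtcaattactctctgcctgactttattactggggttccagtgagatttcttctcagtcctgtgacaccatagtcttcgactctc
Cd300a: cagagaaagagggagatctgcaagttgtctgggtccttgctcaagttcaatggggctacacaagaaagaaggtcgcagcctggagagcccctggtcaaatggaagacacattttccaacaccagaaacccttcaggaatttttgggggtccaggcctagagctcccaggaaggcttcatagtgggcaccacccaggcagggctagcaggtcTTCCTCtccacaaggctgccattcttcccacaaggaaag
In Siglece all 3 read TTCCTC on the strand of the gene, whereas in Lilrb3 the first 2 read GAGGAA and the last TTCCTC. Of 4 other motifs searched in the same way, the C/EBP core TTGCNNAA was found once each in Cd300a, Pilra and Lair1 (9.56% of all promoters hold it), and the RUNX core TGTGGT once each in Cd33 and Pilra (14.05% of all promoters). The GFI1 core AAATCA (12.43% of all promoters) and the AP-1 site TGANTCA (6.75%) were in none of the 8 windows, which says only that these letters are not there.

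The libraries held 11305666 to 16948697 counts each. Rn45s, the ribosomal RNA precursor, took 14.6% to 16.1% of the counts in the drug and vehicle libraries and 20.4% and 24.6% in the day 0 libraries. Levels are given as CPM, read counts scaled to a common library size after normalisation, each mean with its SD over 2 libraries, and changes are given on the log2 scale with their SE. A gene was called changed at an adjusted p below 0.05 (edgeR's quasi-likelihood test, adjusted over the 11283 genes with enough counts). The labels describe biological replicates, and with 2 libraries a group the p-values measure only the spread between these cultures. In RNA from whole cultures, a larger share of cells with a gene and more RNA per cell cannot be told apart. All 10 markers of granulocyte-monocyte progenitors, such as Mpo, Elane and Kit, had counts in the libraries, with a summed level of 10579 to 11135 CPM with the drugs, 8543 to 8784 CPM with vehicle and 7601 to 7915 CPM at day 0. Single markers went both ways. With the drugs, 3 of the 10 were called higher than with vehicle and 3 lower, with a median log2 change of 0.08. Over all tested genes, 18.1% were higher and 13.8% lower.

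Siglece gave the largest difference among the receptors: it was abundant with the drugs and close to absent in the other groups. Siglec-E carries an ITIM and restrains neutrophil and macrophage activation. Its gene was read with 602 and 745 counts in the drug libraries, 5 and 4 counts in the vehicle libraries and 2 and 2 counts in the day 0 libraries. These correspond to 48.2 and 48.1 CPM with the drugs, 0.395 and 0.334 CPM with vehicle, and 0.120 and 0.166 CPM at day 0. Both drug libraries were far above all 4 others, and they were nearly equal to each other. The log2 change was 7.01 ± 0.190 (128-fold) for drugs versus vehicle and 8.34 ± 0.213 (325-fold) for drugs versus day 0. Both folds rest on the few counts of the vehicle and day 0 libraries. The SE is derived from F and understates the counting error at such low counts, so the size of both folds is uncertain. Siglece passed the filter on low counts only through the drug libraries. The gene lies on chromosome 7 from 43651070 to 43660161 on the minus strand and has 7 exons, which add up to 1849 bp.

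Cd33, the mouse homologue of the leukaemia antigen CD33, was the most abundant receptor in every group. It had 723.7 and 741.5 CPM in the drug libraries, 383.2 and 419.6 CPM in the vehicle libraries and 287.1 and 290.2 CPM at day 0. The 3 groups did not overlap, with the drugs highest and day 0 lowest. The log2 change was 0.87 ± 0.0764 (1.83-fold) for drugs versus vehicle and 1.34 ± 0.0772 for drugs versus day 0. Human CD33 is an inhibitory Siglec, whereas the tail of the mouse protein differs from it and its inhibitory role is less clear. Siglec5 (Siglec-F) had 94.7 and 98.9 CPM with the drugs, 94.6 and 101.6 CPM with vehicle, and 109.5 and 105.8 CPM at day 0. Its drug and vehicle libraries overlapped, at a log2 change of -0.02 ± 0.0698. Of 9 eosinophil markers, 5 (Epx, Ccr3, Ear1, Ear2 and Ear6) had at most 10 counts in every library. The summed level of the 9 was 93.0 to 96.0 CPM with the drugs and 108.5 to 125.1 CPM with vehicle. At day 0 it was 124.9 to 157.9 CPM. The sum does not give the direction of each marker. For drugs versus vehicle, 2 of the 4 tested eosinophil markers were called higher and 1 lower. Their median log2 change was 0.53.

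Lilrb3, which encodes the MHC class I receptor PIR-B, was the receptor with opposite differences in the drug and vehicle cultures relative to day 0. It had 52 and 74 counts with the drugs, 12 and 7 with vehicle, and 42 and 24 at day 0, or 4.17 and 4.78 CPM with the drugs, 0.949 and 0.585 CPM with vehicle, and 2.51 and 1.99 CPM at day 0. No group overlapped another, and the vehicle libraries were the lowest. The log2 change was 2.53 ± 0.302 (5.77-fold) for drugs versus vehicle and 0.97 ± 0.231 for drugs versus day 0. The gene lies on chromosome 7 from 3712505 to 3720382 on the minus strand and has 15 exons. It shares long stretches of sequence with the Pira genes, and the sources used here do not say how reads that match several genes were counted, so its level is uncertain. Lilrb4, an inhibitory receptor of mast cells and macrophages, had 0 and 2 counts with the drugs, 0 in both vehicle libraries, and 1 and 0 at day 0, and was not tested.

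Pilra, an inhibitory receptor for sialylated glycoproteins, had 24 and 43 counts with the drugs, 1 and 4 with vehicle, and 1 and 0 at day 0. The drug libraries were both above all 4 others, although they differed from each other. The log2 change was 3.49 ± 0.527 for drugs versus vehicle, and against the single day 0 count the ratio was 68.8 (95% counting interval 11.9 to 2759). Like Siglece, Pilra passed the filter only through the drug libraries. Its exons share 468 bp with those of Zcwpw1 on the opposite strand, and the sources used here do not say whether strands were counted apart, so reads of these genes may be mixed. Zcwpw1 itself had a log2 change of 0.38 ± 0.127 for drugs versus vehicle. Sirpa, the CD47 receptor that restrains phagocytosis, had 96.4 and 90.1 CPM with the drugs, 75.1 CPM in both vehicle libraries, and 55.1 and 58.5 CPM at day 0. The groups did not overlap, with a log2 change of 0.31 ± 0.0707 for drugs versus vehicle and 0.72 ± 0.0715 for drugs versus day 0.

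Cd300a, Lair1 and Cd300lf, like Siglec5, had log2 changes below 0 in all 3 comparisons, small for Cd300a and uncertain for Cd300lf. Cd300a, an ITIM receptor for phosphatidylserine, had 24.2 and 26.7 CPM with the drugs, 25.8 and 26.3 CPM with vehicle, and 27.6 and 24.9 CPM at day 0, all overlapping. Its log2 change was -0.03 ± 0.100 for drugs versus vehicle. Lair1, a collagen receptor, had 8.97 and 10.3 CPM with the drugs, 11.4 and 10.6 CPM with vehicle, and 12.5 and 13.3 CPM at day 0. Its drug libraries were both just below the vehicle libraries, with a log2 change of -0.18 ± 0.136, and the change versus day 0 was -0.41 ± 0.131. Cd300lf, a lipid receptor of myeloid cells, had 4 to 18 counts a library and overlapped between drugs and vehicle, with a log2 change of -0.93 ± 0.593.

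**Figure D1:**
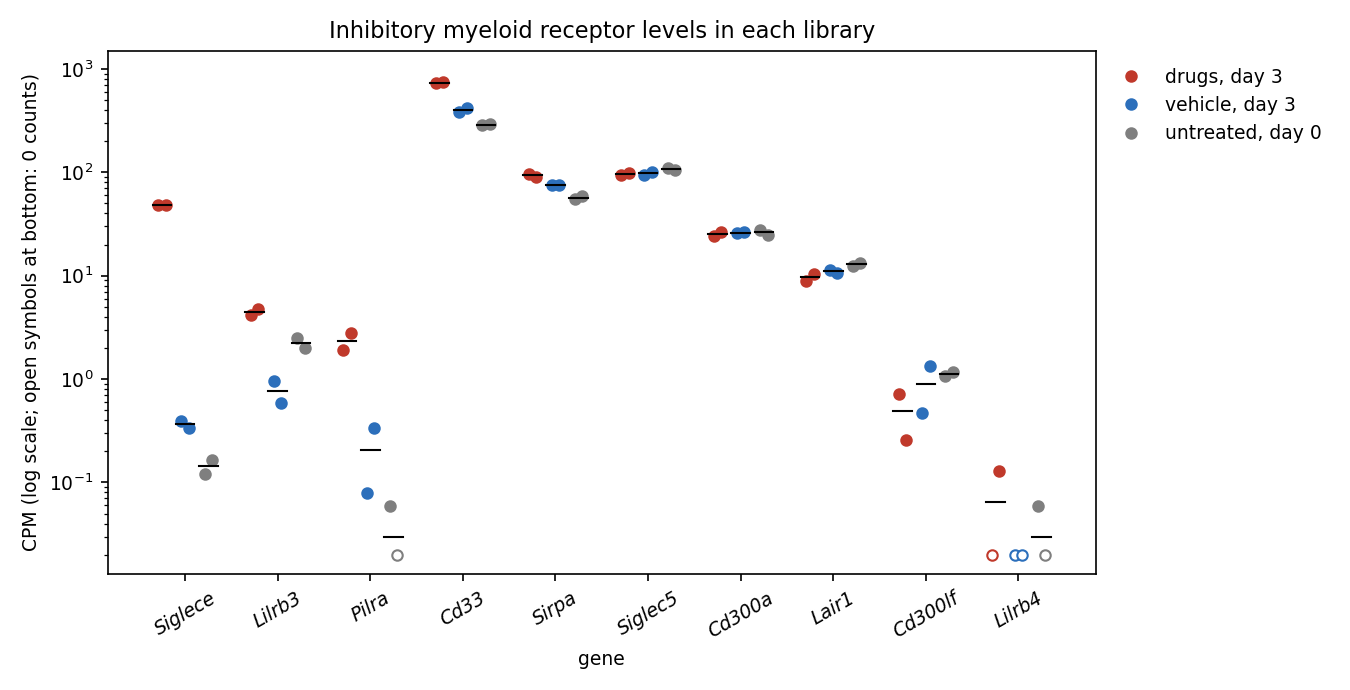
Level of each receptor gene in each library, in CPM on a log axis, with drugs, vehicle and day 0 from left to right within a gene (n = 2 each). Horizontal bars are group means and open symbols at the bottom are libraries with 0 counts. The 2 drug libraries lie above the other 4 for Siglece, Lilrb3, Pilra, Cd33 and Sirpa.

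With the drugs compared with vehicle, 5 of the 9 tested receptors were past the threshold, all higher (Siglece, Pilra, Lilrb3, Cd33 and Sirpa), where 31.9% of all tested genes passed it and 18.1% were higher. With the drugs compared with day 0, 5 passed higher (the same 5) and 1 lower (Lair1), where 43.9% of all tested genes passed (22.7% higher and 21.2% lower). Since the receptors were chosen with these changes known, and both comparisons use the same drug libraries, nothing is read from these counts. For drugs versus vehicle, the log2 changes of Siglec5, Cd300a, Lair1 and Cd300lf lay between -0.93 and -0.02, below that of Sirpa at 0.31. Sirpa did not pass without drug replicate 1, where the log2 change was 0.26.

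**Figure D2:**
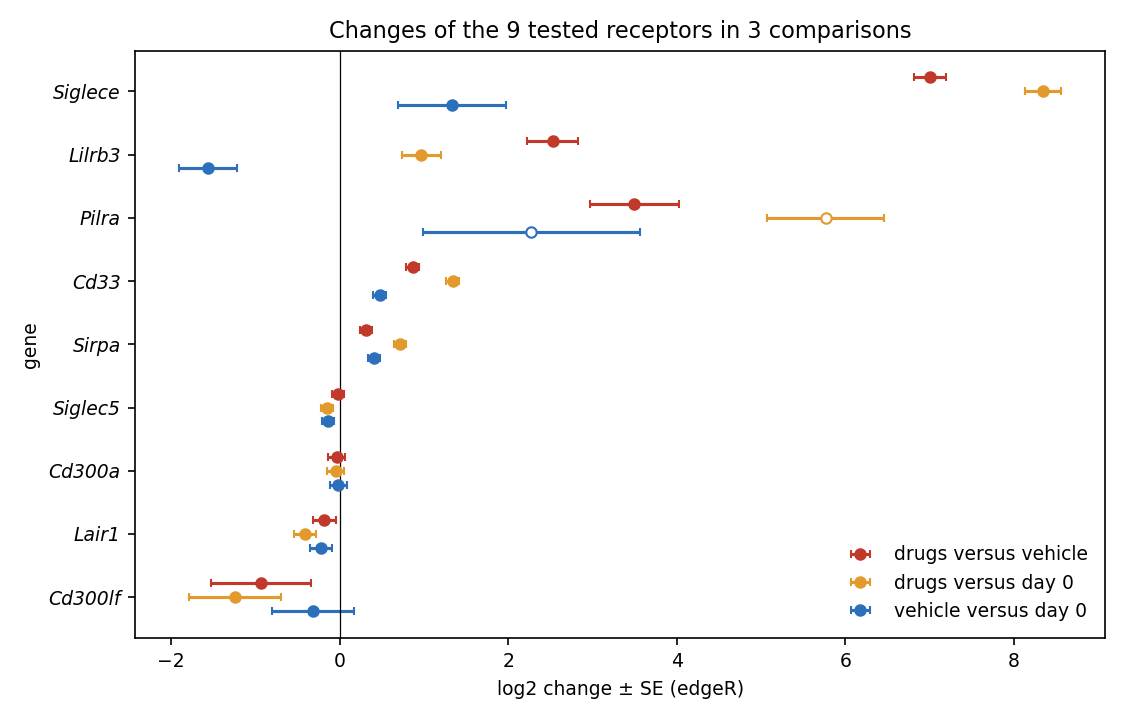
Log2 change ± SE of the 9 tested receptors (edgeR), for drugs versus vehicle, drugs versus day 0 and vehicle versus day 0. The open symbols of Pilra rest on 1 count in the day 0 group. Siglece had 2 to 5 counts in each vehicle and day 0 library, where the SE understates counting error. Siglece is near 7 and 8 in the comparisons with the drugs, and Lilrb3 is the receptor on opposite sides of 0 in drugs versus day 0 and vehicle versus day 0.

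Vehicle and day 0 were compared to ask what 3 days of culture without the drugs did to these receptors. Cd33 and Sirpa were higher after 3 days with vehicle than at day 0, and Lilrb3 was lower. These 3 of 9 tested receptors stand beside 7.74% of all tested genes, with 3.75% higher and 3.99% lower. Siglece and Pilra, neither of them called here, are among the 9 only through the drug libraries. Cd33 averaged 401.4 ± 25.7 CPM with vehicle and 288.6 ± 2.24 CPM at day 0, a log2 change of 0.48 ± 0.0767 (edgeR adjusted p = 0.00254). Sirpa averaged 75.1 ± 0.0102 CPM with vehicle and 56.8 ± 2.41 CPM at day 0, a log2 change of 0.40 ± 0.0729 (edgeR adjusted p = 0.0052). Both genes had their vehicle libraries above both day 0 libraries, and the drug libraries higher again. Lilrb3 averaged 0.767 ± 0.257 CPM with vehicle and 2.25 ± 0.366 CPM at day 0, a log2 change of -1.56 ± 0.344 (edgeR adjusted p = 0.016). The call on Lilrb3 was lost without vehicle replicate 2 (log2 change -1.25, edgeR adjusted p = 0.086), without day 0 replicate 1 (-1.36, adjusted p = 0.134) and with DESeq2 (adjusted p = 0.0704). Siglece changed by 1.34 ± 0.641 between vehicle and day 0, on 9 and 4 counts in all. No p-value is given for it, since it passed the filter only through the drug libraries. Pilra had 5 counts with vehicle and 1 at day 0 in all, a ratio of 5.84 (95% counting interval 0.654 to 276.2). Siglec5 (log2 change -0.14 ± 0.0694), Cd300a (-0.01 ± 0.0995), Lair1 (-0.22 ± 0.131) and Cd300lf (-0.31 ± 0.487) did not pass, with edgeR adjusted p between 0.245 and 0.944. The vehicle libraries are shared with the comparison of drugs and vehicle. Lilrb3 was chosen with its response in that comparison known. Vehicle libraries that happened to be low would favour both that response and a lower level here. Its adjusted p can therefore overstate the difference, and nothing is read from its call.

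Levels of different genes were compared per kilobase of exon. The 10 receptors summed to 383.7 ± 5.94 CPM per kilobase with the drugs, 223.8 ± 12.2 with vehicle and 180.6 ± 0.0172 at day 0. Cd33 made up 74.3% of this sum with the drugs, 69.7% with vehicle and 62.2% at day 0. Siglece made up 6.79% with the drugs, 0.0886% with vehicle and 0.0428% at day 0. In levels per kilobase, Siglece was rank 3 of the 10 with the drugs, at 26.0 ± 0.0531 CPM per kilobase, and rank 8 both with vehicle (0.197 ± 0.0233) and at day 0 (0.0773 ± 0.0178). With the drugs it stood between Siglec5 (39.6 ± 1.23) and Sirpa (22.1 ± 1.06), and the libraries of these 3 genes did not overlap. Below Sirpa with the drugs came Cd300a at 5.48 ± 0.375, Lair1 at 2.75 ± 0.273, Lilrb3 at 1.64 ± 0.158, Pilra at 0.908 ± 0.233, Cd300lf at 0.260 ± 0.174 and Lilrb4 at 0.0455 ± 0.0644 CPM per kilobase. Neighbours in this order did not overlap between libraries. With vehicle, the order was Cd33 (156.1 ± 10.01), Siglec5 (40.1 ± 2.01), Sirpa (17.8 ± 0.00242), Cd300a (5.62 ± 0.0744) and Lair1 (3.13 ± 0.154), and then Cd300lf (0.481 ± 0.324), Lilrb3 (0.281 ± 0.0942), Siglece (0.197) and Pilra (0.0799 ± 0.0698). Cd300lf and Lilrb3 overlapped, and Lilrb3 and Siglece differed by less than the SD of Lilrb3. At day 0 the first 5 had the same order, and Lilrb3 (0.826 ± 0.134) stood just above Cd300lf (0.594 ± 0.0325), followed by Siglece, Lilrb4 (0.0211 ± 0.0298) and Pilra (0.0116 ± 0.0163), of which the lowest pair overlapped.

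The change of Siglece was set beside those of its chromosomal neighbours. Siglece, Cd33 and Siglec5 lie within 1 stretch of chromosome 7, with Cd33 from 43527456 to 43533171 and Siglec5 from 43351405 to 43359470. Of the 25 other genes from about 200 kb beyond Siglec5 to 200 kb beyond Siglece, 8 were tested. With the drugs, 7 of these were higher than with vehicle and none was lower, where 18.1% of all tested genes were higher and 13.8% lower. Zfp658, a zinc finger gene whose midpoint is 86.7 kb from that of Siglece, averaged 65.7 ± 2.64 CPM with the drugs, 5.89 ± 0.0613 CPM with vehicle and 3.51 ± 0.963 CPM at day 0 (log2 change 3.48 ± 0.128 for drugs versus vehicle, edgeR adjusted p = 6.49e-10). Siglecg, an inhibitory Siglec of B cells, averaged 14.9 ± 0.109 CPM with the drugs, 8.35 ± 0.848 CPM with vehicle and 4.35 ± 0.277 CPM at day 0 (log2 change 0.84 ± 0.135, edgeR adjusted p = 4.40e-04). The other 5 were Iglon5, Nkg7, Zfp719, Ctu1 and Zfp715, with log2 changes of 2.24, 1.87, 0.92, 0.54 and 0.30. Iglon5 is 1 of the 7 although it passed the filter only through the drug libraries. The calls on Iglon5, Ctu1 and Zfp715 were each lost when at least 1 library was left out. Between Cd33 and Siglec5, Etfb, a subunit of the electron transfer flavoprotein, changed by -0.18 ± 0.073 and did not pass (edgeR adjusted p = 0.0812). Ceacam18, the nearest gene to Siglece, had 16 counts over both drug libraries and 0 with vehicle, at least 4.69-fold higher if vehicle is given a floor of 3 counts over both libraries, and was not tested. The kallikrein genes on the other side of Siglece had no or almost no counts in any library. Changes in this stretch were uneven, with Siglec5 and Etfb near 0 among genes that rose. Around Lilrb3, 3 of 10 tested genes within 200 kb were higher with the drugs and 1 was lower, beside the same shares of all tested genes.

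**Figure D3:**
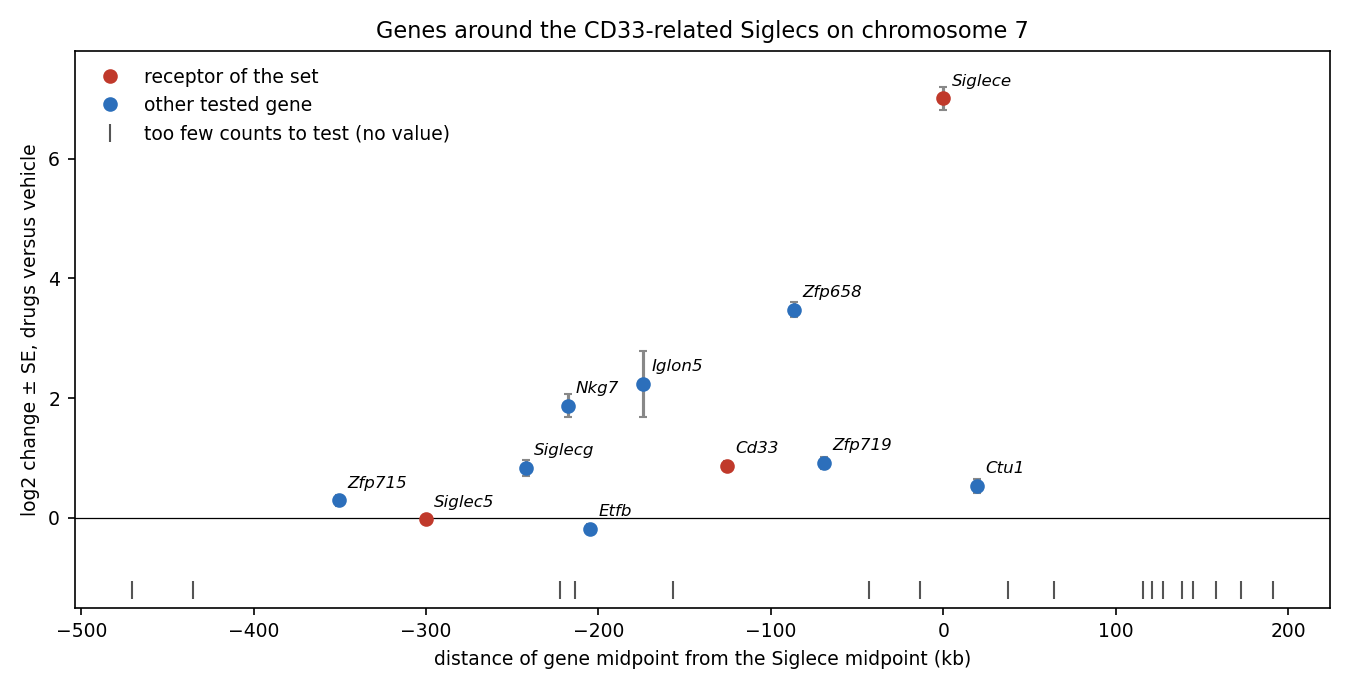
Log2 change ± SE for drugs versus vehicle (edgeR) of genes around the CD33-related Siglecs, against the distance of each gene's midpoint from that of Siglece in kb. Red points are receptors of the set, blue points other tested genes, and ticks at the bottom are genes with too few counts. Siglece at 7.01 and Zfp658 at 3.48 are the highest points, and Siglec5 and Etfb are near 0.

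Other inhibitory receptors were also mostly higher with the drugs than with vehicle. Of 31 listed genes 15 were tested. Of these, 14 were higher and 1 lower, where 18.1% of all tested genes were higher and 13.8% lower. The median log2 change was 1.34, beside 0.00075 over all tested genes. Without Siglec1 and Cd22, which passed the filter only through the drug libraries, 12 of 13 were higher and 1 lower, with a median of 1.28. With DESeq2, 12 genes of the whole list were called higher and 1 lower. Cd244 (log2 change 0.22, DESeq2 adjusted p = 0.231) and 4632428N05Rik, an older symbol of Vsir (0.38, adjusted p = 0.0909), lost their calls there. Gm885, an older symbol of the mast cell inhibitory receptor Milr1, averaged 103.8 ± 4.58 CPM with the drugs, 6.99 ± 0.0677 CPM with vehicle and 6.03 ± 0.775 CPM at day 0 (log2 change 3.89 ± 0.104, edgeR adjusted p = 3.29e-11). Siglec1, the macrophage sialic acid receptor sialoadhesin, which lacks an ITIM, had 65 and 87 counts with the drugs and 0 in all 4 other libraries. It was at least 44.6-fold higher with the drugs than with vehicle by the same floor of 3 counts. Cd22, an inhibitory Siglec best known on B cells, had 45 and 59 counts with the drugs and 0 in all 4 other libraries, at least 30.5-fold higher than with vehicle. Clec12a, a C-type lectin receptor, rose by 1.69 ± 0.0863 (edgeR adjusted p = 1.34e-08). Fcgr2b, the inhibitory Fc receptor, averaged 150.6 ± 3.30 CPM with the drugs and 59.6 ± 8.91 CPM with vehicle, and rose by 1.34 ± 0.105 (edgeR adjusted p = 8.17e-07). Cd72, a receptor of B cells, was the gene that fell, by 0.74 ± 0.117. Cd200r3, with a log2 change of 3.91 ± 0.503, is in the list by its family, and the mouse protein is known as an activating DAP12 partner.

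The activating partners of these receptors were also mostly higher with the drugs. Of 25 listed genes 11 were tested, and 8 were called higher and none lower in the drug group relative to vehicle, with a median log2 change of 1.64. Of these 11, 5 passed the filter only through the drug libraries (Sirpb1a, Sirpb1b, Pilrb1, Pilrb2 and Lilra6), so no p-value is given for them. Among the other 6, 4 were higher and none lower, with a median of 0.87, beside 18.1% higher over all tested genes. Cd300e and Trem1 are among these 4, and both calls were lost with DESeq2 (DESeq2 adjusted p = 0.106 and 0.146). They were also lost when 1 of several libraries was left out. Clec5a, a DAP12-coupled lectin receptor, averaged 161.4 ± 1.66 CPM with the drugs, 51.9 ± 4.47 CPM with vehicle and 82.9 ± 5.01 CPM at day 0 (log2 change 1.64 ± 0.0788, edgeR adjusted p = 8.84e-09). Cd300lb, the DAP12-coupled receptor of the CD300 family, rose by 2.24 ± 0.136 (edgeR adjusted p = 6.55e-08). Sirpb1b, a related gene of Sirpa, had 24 and 35 counts with the drugs and 0 and 1 with vehicle, a ratio of 51.9 (95% counting interval 8.96 to 2084). Sirpb1a had 11 and 12 counts with the drugs and 0 and 1 with vehicle, a ratio of 20.2 (3.29 to 833.4). Pilrb1 and Pilrb2, the activating counterparts of Pilra, had log2 changes of 1.73 ± 0.358 and 2.54 ± 0.397. These genes resemble Sirpa or Pilra in sequence, so reads may have been shared between them. The count of 8 was 5 without drug replicate 2, 5 without vehicle replicate 1 and 4 with DESeq2. Tyrobp, the DAP12 adaptor, averaged 51.8 ± 2.78 CPM with the drugs, 24.4 ± 3.15 CPM with vehicle and 28.2 ± 6.29 CPM at day 0, and rose by 1.09 ± 0.132 (edgeR adjusted p = 4.09e-05). Of the 5 adaptors listed, 3 were higher (Tyrobp, Hcst and Cd79a) and 1 lower (Cd79b), a total of 4 that was 2 without drug replicate 1 or vehicle replicate 2 and 1 without drug replicate 2. Hcst, the DAP10 adaptor, rose by 1.01 ± 0.306 (edgeR adjusted p = 0.0233), and Cd79a, of the B cell receptor, by 0.84 ± 0.25 (adjusted p = 0.0212). Both calls were lost without drug replicate 2, where the adjusted p was 0.163 for Hcst and 0.0991 for Cd79a.

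Effectors that act on a phosphorylated ITIM were called in both directions. Of 12 listed genes, all tested, 3 rose and 2 fell with the drugs relative to vehicle, close to the 18.1% higher and 13.8% lower over all tested genes, and the median log2 change was -0.08. Ptpn6 (SHP-1) changed by 0.02 ± 0.0685 (edgeR adjusted p = 0.885), Ptpn11 (SHP-2) by -0.16 ± 0.0739 (adjusted p = 0.112) and Inpp5d (the lipid phosphatase SHIP-1) by -0.15 ± 0.0748 (adjusted p = 0.153), none past the threshold. Dok2, an adaptor that restrains Ras signalling, averaged 3.73 ± 0.163 CPM with the drugs, 11.9 ± 1.62 CPM with vehicle and 14.9 ± 3.66 CPM at day 0, and fell by 1.67 ± 0.21 (edgeR adjusted p = 5.61e-05). Pag1, a membrane adaptor that recruits the kinase Csk, rose by 0.66 ± 0.0893 (edgeR adjusted p = 1.08e-04). Of 11 Src, Syk and Btk family kinases, 7 were tested, and none was higher and 3 were lower (13.8% of all tested genes were lower), with a median of -0.20. Syk averaged 140.5 ± 7.02 CPM with the drugs, 203.0 ± 24.4 CPM with vehicle and 198.7 CPM at day 0, and fell by 0.53 ± 0.0867 (edgeR adjusted p = 4.85e-04). Fyn fell by 0.46 ± 0.127 (edgeR adjusted p = 0.014) and Btk by 0.20 ± 0.0687 (adjusted p = 0.0396), and the count of 3 was 1 without drug replicate 2 or vehicle replicate 2. Lyn, the main Src kinase of myeloid cells, changed by -0.04 ± 0.0663 (edgeR adjusted p = 0.716).

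Among ligands, 12 of 18 genes were tested, of which 3 were called higher and 1 lower in the drug group relative to vehicle, close to the 31.9% of all tested genes called, and the median was 0.32. Cd47, the ligand of SIRPα, changed by 0.05 ± 0.0742 (edgeR adjusted p = 0.676). The class I gene H2-K1 rose by 0.42 ± 0.0873 (edgeR adjusted p = 0.00297), and B2m, the shared class I light chain, changed by 0.21 ± 0.126 (adjusted p = 0.226). Cd52, a small glycoprotein whose human form is a Siglec-10 ligand, rose by 1.40 ± 0.184 (edgeR adjusted p = 8.42e-05). Fn1 (fibronectin) had 16 and 23 counts with the drugs and 1 and 0 with vehicle, a ratio of 34.3 (95% counting interval 5.80 to 1389), and is 1 of the 3 although it passed the filter only through the drug libraries. Of 32 genes that make, transfer or remove sialic acid, the sugar that Siglecs bind, 22 were tested, and 7 were higher and 5 lower, beside 18.1% and 13.8% of all tested genes, with a median of -0.09. The enzymes of sialic acid synthesis Gne and Nans fell by 0.50 ± 0.0812 and 0.43 ± 0.0825, and the transporter of the activated sugar, Slc35a1, fell by 0.41 ± 0.0957. Among the transferases, St8sia4, which builds polysialic acid, averaged 288.7 ± 16.3 CPM with the drugs, 144.0 ± 8.77 CPM with vehicle and 171.5 CPM at day 0, and rose by 1.0 ± 0.0753 (edgeR adjusted p = 5.4e-07). St6gal1, which makes the alpha-2,6 linkage, rose by 1.41 ± 0.113 (edgeR adjusted p = 1.02e-06), St6galnac3 by 1.15 ± 0.0872 (adjusted p = 5.97e-07) and St3gal6 by 2.95 ± 0.355 (adjusted p = 3.91e-05). In vehicle versus day 0, the 7 lists together had 2 genes higher and 6 lower of 84 tested, near the 7.74% of all tested genes called. Of these 8, 5 were inhibitory receptors, and the calls on H2-K1 and Sh2d1b1 were each lost when 1 of several libraries was left out.

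**Figure D4:**
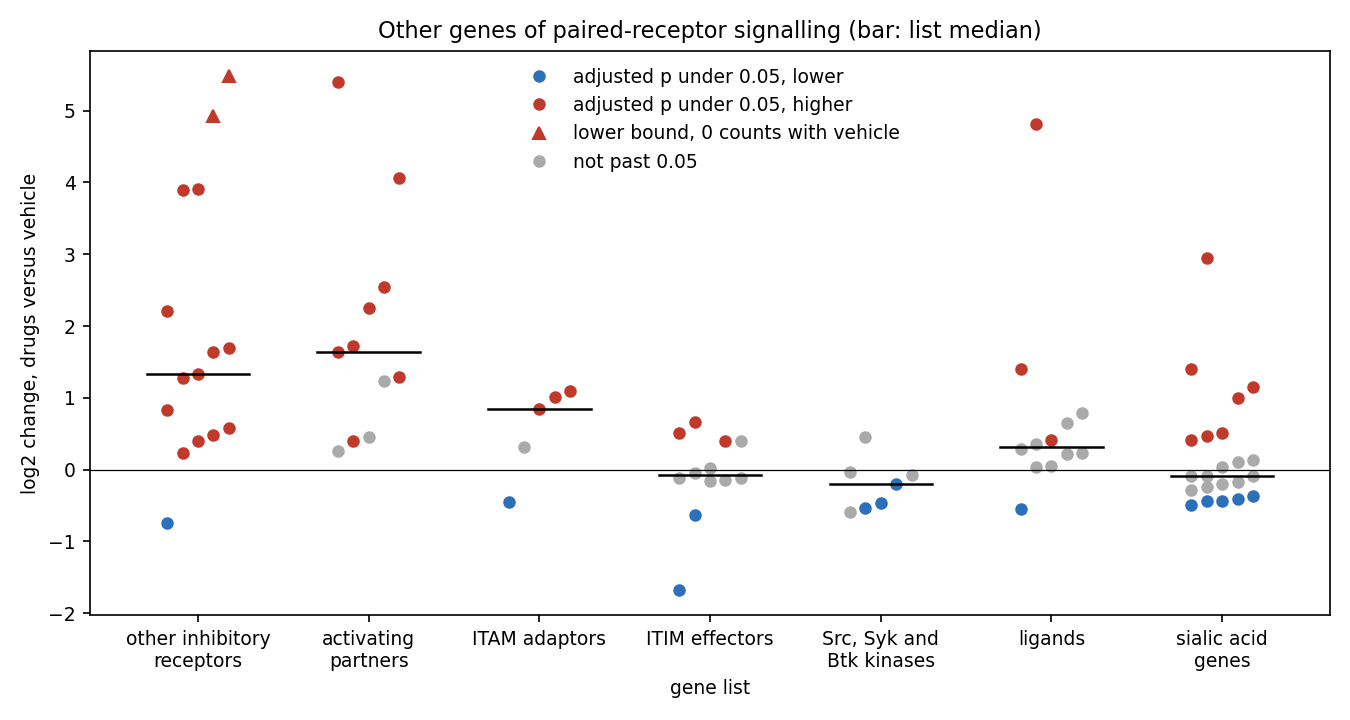
Log2 change for drugs versus vehicle (edgeR) of each tested gene in 7 lists, with the list median as a bar. Red is higher and blue lower at an adjusted p under 0.05, grey did not pass, and triangles (Siglec1 and Cd22) are lower bounds because vehicle had 0 counts. Inhibitory receptors and activating partners lie mostly above 0, with medians of 1.34 and 1.64, and the effectors, kinases and sialic acid genes around it.

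Some markers of mature myeloid cells were also higher with the drugs, and others were absent. The counts of called markers stand beside 18.1% of all tested genes higher and 13.8% lower than with vehicle. Of 9 tested monocyte markers, 7 rose and 2 fell with the drugs relative to vehicle. Ctss, 1 of the 9, passed the filter only through the drug libraries, so nothing is read from its change. The summed level of the 10 listed was 1383 to 1501 CPM with the drugs, 932.4 to 988.4 CPM with vehicle and 1155 to 1219 CPM at day 0. Klf4 was at 10 counts or fewer in every library. Of 11 neutrophil markers, 6 were tested and 4 were higher, with a median log2 change of 0.73. Mmp9, 1 of the 6, also passed the filter only through the drug libraries, so nothing is read from its change. The 11 markers summed to 3563 to 3876 CPM with the drugs, 64.6 to 68.8 CPM with vehicle and 59.8 to 64.7 CPM at day 0. Of this sum, Mmp8 alone made 3642 ± 223.2 CPM with the drugs and 10.35 ± 3.46 CPM with vehicle. The late neutrophil genes Ltf, Camp, Ngp, S100a9 and Retnlg had at most 10 counts in every library. The 10 macrophage markers summed to 77.6 to 78.3 CPM with the drugs, 20.9 to 25.1 CPM with vehicle and 29.7 to 33.6 CPM at day 0. Only 2 of them were tested, both higher, and C1qa, C1qb, C1qc, Mertk, Vsig4, Timd4 and Marco had at most 10 counts in every library, 6 of the 7 being at 0 throughout. Mast cell and basophil markers summed to 1289 to 1381 CPM with the drugs, 553.3 to 568.4 CPM with vehicle and 981.4 to 1166 CPM at day 0, with 3 of 5 tested higher and 1 lower. Of these markers, Fcer1a, Prss34, Cma1, Mcpt4 and Tpsb2 had at most 10 counts in every library. Dendritic cell markers summed to 44.7 to 45.4 CPM with the drugs, 22.1 to 28.3 CPM with vehicle and 27.7 to 33.5 CPM at day 0. Of the 10 listed, 8 (Siglech, Xcr1, Clec9a, Zbtb46, Batf3, Ccr9, Cd209a and Ly6d) had at most 10 counts in every library. Only 2 were tested, of which 1 was higher and none lower. The B cell markers Ms4a1, Pax5, Vpreb1 and Blk had at most 10 counts in every library, and the 9 B cell markers, which include Cd22, summed to 57.3 to 58.8 CPM with the drugs, 100.2 to 108.8 CPM with vehicle and 93.3 to 100.2 CPM at day 0. The 10 T and NK cell markers had at most 10 counts in every library. What part these other programmes have in the receptor changes was not tested.

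Genes with the most similar profiles were found by the distance between log2 levels, each centred on its own mean, over the 6 libraries. Nearest to Siglece were Ms4a4c (distance 0.97 on the log2 scale), Mgst1 (1.13), Stab1 (1.31), Ptgfrn (1.35) and P2rx7 (1.61). Stab1, a scavenger receptor of macrophages, averaged 552.8 ± 20.02 CPM with the drugs, 4.15 ± 0.395 CPM with vehicle and 5.70 ± 0.525 CPM at day 0. P2rx7, the ATP-gated channel, averaged 80.6 ± 3.62 CPM with the drugs, 0.560 ± 0.437 CPM with vehicle and 0.698 ± 0.282 CPM at day 0. Mgst1, a microsomal glutathione transferase, averaged 51.3 ± 0.680 CPM with the drugs, 0.769 ± 0.142 CPM with vehicle and 0.161 ± 0.110 CPM at day 0. These 3 genes were far higher in the drug libraries than in the other libraries, in which Stab1 was low and P2rx7 and Mgst1 were below 1 CPM. Nearest to Lilrb3 were Nlrp10 (0.41), Ccl3 (0.45), Usp35 (0.57), Arhgef17 (0.59) and Mrvi1 (0.60). Ccl3, an inflammatory chemokine, averaged 10.5 ± 1.80 CPM with the drugs, 1.86 ± 0.271 CPM with vehicle and 5.20 ± 0.425 CPM at day 0. Nlrp10, of the NOD-like receptor family, averaged 10.5 ± 1.24 CPM with the drugs, 1.70 ± 0.392 CPM with vehicle and 4.59 ± 0.961 CPM at day 0, so like Lilrb3 it was lowest with vehicle. These likenesses rest on 6 libraries in 3 groups and describe only the order and size of group levels.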

How the data were processed

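Polyadenylated RNA of 6 cultures was sequenced. The deposited table holds whole-number counts of reads per gene, made by the authors without normalisation, and a Length column in base pairs (another unit), also deposited, which was used only for levels per kilobase. The submitters' processing notes name STAR 2.7.0f, deepTools 3.0.2 and mm10, and in the labels the table is named featurecount. How strands and multiple matches were counted, and with which annotation release, is not stated in the sources used here.

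Low-count genes were removed with filterByExpr, which left 11283 genes. Libraries were scaled with TMM, and 1 model for the 3 groups was fitted in edgeR 4.0.16 (R 4.3.3, 3 residual degrees of freedom, prior count 0.125). The quasi-likelihood test was Benjamini-Hochberg adjusted over all tested genes with a threshold of 0.05, and the SE was derived from F. The script was tested on simulated data. For 0 counts in a group, a fold is a bound against a floor of 3 counts, and for 1 to 3 counts a ratio with an exact 95% interval. Both cover counting error only. DESeq2 1.42.0, other scalings, filters, replicate blocks and leaving out libraries were alternatives. Similar profiles used log2 CPM with a prior count of 2.

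The receptors and gene lists were chosen with earlier results of these data known. From each list, up to 4 called genes were named, the 2 lowest in p and the 2 largest in log2 change. Other genes named from the lists and the Siglec stretch were chosen after their values were seen. Older symbols were matched through RefSeq. A listed marker is not reported here.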

Additional observations from a re-analysis of the deposited data

How the results depend on the processing

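Of the receptor changes for vehicle versus day 0 under alternatives, 121 of 124 kept their side of the threshold, and no called receptor changed direction in any comparison. The number of receptors called was 4 to 5 for drugs versus vehicle, 2 to 3 for vehicle versus day 0 and 4 to 6 for drugs versus day 0. For drugs versus day 0, Lair1 was not past it with library totals, with DESeq2, without drug replicate 1 or without day 0 replicate 2, nor Lilrb3 with DESeq2 or without drug replicate 2. Over all genes, the 873 called for vehicle versus day 0 became 1957 with library totals (1741 higher and 216 lower), 1664 with no filter, 461 with DESeq2 and 527 with only the 2 groups fitted. Library totals moved the median of all genes there to 0.10, beside -0.02, and for drugs versus vehicle called 1644 higher and 1695 lower. DESeq2 called 2321 for drugs versus vehicle, where edgeR called 3601. Leaving out 1 library gave 1833 to 4191 for drugs versus vehicle, 351 to 2012 for vehicle versus day 0 and 2872 to 5142 for drugs versus day 0, and the lowest for both comparisons with the drugs came without drug replicate 1. For vehicle versus day 0 the lowest came without vehicle replicate 1 and the highest without day 0 replicate 2. Replicate numbers were not shown to pair the cultures (correlations of same-numbered deviations 0.08, -0.20 and -0.06). With the replicate block, 483 genes were called for vehicle versus day 0, and 470 with the 2 groups alone. A crossed replicate block, added after seeing the data, called 3125. The cause of these differences was not tested. Receptors with under 20 counts in every library, Cd300lf and Lilrb4, are limited by depth. So are Siglece (2 to 5 counts) and Pilra (0 to 4) in the vehicle and day 0 libraries, and Lilrb3 with vehicle (12 and 7).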

Other observations

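Of the 5 genes with profiles nearest to Lilrb3, 4 lie on chromosome 7, which also holds Lilrb3. They are Usp35 from 97309380 to 97325964, Arhgef17 from 100869746 to 100932161, Nlrp10 from 108921853 to 108930158 and Mrvi1 from 110868267 to 110982095, all far from Lilrb3, which ends at 3720382. Chromosome 7 holds 7.65% of all 11283 tested genes. Among the 20 genes nearest to Lilrb3 it held 4, and among the 50 nearest it held 7 (14%), so the share was lower in the longer lists. Among the 50 genes nearest to Siglece, 3 (6%) were on chromosome 7. Usp35 and Mrvi1 were low, at 1.29 ± 0.461 and 1.504 ± 0.428 CPM with the drugs and 0.202 ± 0.0494 CPM each with vehicle. This was noticed after the values were seen and was not tested.

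The inhibitory receptor Havcr2 (TIM-3) was, like Lilrb3, lowest with vehicle. It averaged 5.49 ± 1.54 CPM with the drugs, 1.79 ± 0.0710 CPM with vehicle and 5.65 ± 0.815 CPM at day 0. Its log2 change was -1.67 for vehicle versus day 0. Cd200r1, the receptor for CD200, averaged 40.3 ± 0.181 CPM with the drugs, 26.9 ± 2.45 CPM with vehicle and 41.0 ± 2.27 CPM at day 0.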
